A study of Mus musculus with 8 samples.

Results

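The proteasome and immunoproteasome genes were taken as every gene of the deposited table whose symbol starts with Psm, one of the letters a to g and a digit, leaving out symbols that contain "-ps". This rule gave 49 of the 23084 genes in the table, and it left out 3 pseudogenes by name, Psmb5-ps, Psmb6-ps2 and Psmb7-ps2, whose mean normalized counts lay between 0.656 and 1.25. RNA-sequencing had been done on CD11b+Ly6C+ (monocytic) and CD11b+Ly6G+ (granulocytic) myeloid cells sorted from spleens of C57BL/6 mice, 6 to 8 weeks old, of the genotypes WT and Lmna KO, with 2 samples in each of 4 groups. In the knockout mice (LmnaMyeKO), Lmna flanked by loxP sites is deleted by LysM-Cre, a Cre recombinase inserted at the lysozyme gene Lyz2, so deletion reaches only cells in which that gene has been active. Whether the wt mice carried the floxed allele or Cre is not given in the sources used here, nor is whether each sample came from 1 mouse or from pooled mice. The paper does not state whether the mice behind these RNA-sequencing samples bore tumors.

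The proteasome is the protease that degrades most ubiquitin-tagged proteins of the cell. Its 20S core is a barrel of α rings and β rings, and 3 subunits of the β ring carry the active sites. The 19S regulatory particle sits on the barrel, binds and deubiquitinates substrates, unfolds them with a ring of ATPases and feeds them into the core. In immune cells and after interferon γ, the catalytic subunits Psmb5, Psmb6 and Psmb7 can be replaced during assembly by Psmb8, Psmb9 and Psmb10, and the activator PA28, built from Psme1 and Psme2, can bind the barrel in place of the 19S particle. This immunoproteasome is known for cutting peptides that fit MHC class I molecules.

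One value per gene was used, the authors' mean of counts divided by size factors. The smallest means in the table were all sums of single-read steps from 8 libraries: this held for 1730 of 1730 genes with a mean under 0.5, while such sums cover 1% of that range of values. The series has 8 samples, so the mean takes in both subsets and both genotypes. The mean therefore cannot show a difference between genotypes or subsets, none is reported, and no standard deviation stands beside the values. The steps give size factors from 0.796 to 1.05 for 7 libraries and of 1.91 for the eighth. Steps were not assigned to samples.

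Markers of both sorted subsets were present in this mean. As normalized counts per kb of transcript, the 6 genes listed as monocyte markers ranged from 437 (Ccr2) to 17534 (Ly6c2). Between them lay F13a1 (683), Fn1 (812), Csf1r (4714) and Itgam (CD11b, 11628). Both subsets were sorted as CD11b+, so Itgam does not mark monocytes here. The 6 neutrophil markers ranged from 8346 (Ly6g) to 1397990 (S100a9). Markers of other cells were present too. The 6 macrophage markers ranged from 2084 (Adgre1) to 9704 (C1qb) per kb and the 4 B-cell markers from 1654 (Ms4a1) to 4065 (Cd79a), and the erythroid markers Hbb-bs and Hba-a1 had 13663 and 6669 per kb. The 4 promyelocyte markers ranged from 558 (Ctsg) to 1766 (Prtn3), the 4 T- and NK-cell markers from 27.6 (Ncr1) to 417 (Cd3g), the 4 dendritic-cell markers from 3.77 (Xcr1) to 54.2 (Siglech) and both platelet markers from 42.7 (Itga2b) to 66.7 (Pf4). Macrophages and B cells also express immunoproteasome genes, and their part in the levels below was not tested. The targeted gene, Lmna, had a mean normalized count of 79.5, or 25.2 per kb. A mean over both genotypes is no check of the knockout.

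To compare genes, each mean was divided by the length of the gene's principal transcript and is given as normalized counts per kb. Among 12262 protein-coding genes with a mean of at least 10, the median level was 175 per kb and the upper quartile 493 per kb. Of the 49 members, 48 reached that minimum, 42 lay above the coding median, 33 above the upper quartile and 11 above the 90th percentile of 1315 per kb. All 14 subunits of the 20S core and all 17 Psmc and Psmd subunits of the 19S particle were above the coding median, the lowest of these 31 at percentile 66.1. The exceptions were 4 assembly chaperones, the inhibitor Psmf1, Psmc3ip and Psma8. Together the members held 0.329% of the summed level per kb of these coding genes.

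The classes differed in level. The 5 immunoproteasome genes had a median of 2063 per kb, 1.85 times that of the 14 subunits of the 20S core (1114 per kb). The core median was in turn 1.70 times that of the 17 subunits of the 19S particle (653 per kb). The 7 assembly chaperones had a median of 142 per kb, and the core median was 7.86 times as high. These medians describe the genes of a class in one pooled mean, with no test over samples. The order of the immunoproteasome, core and 19S medians was the same under all 6 alternatives for gene length and pseudogene reads.

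**Figure D1:**
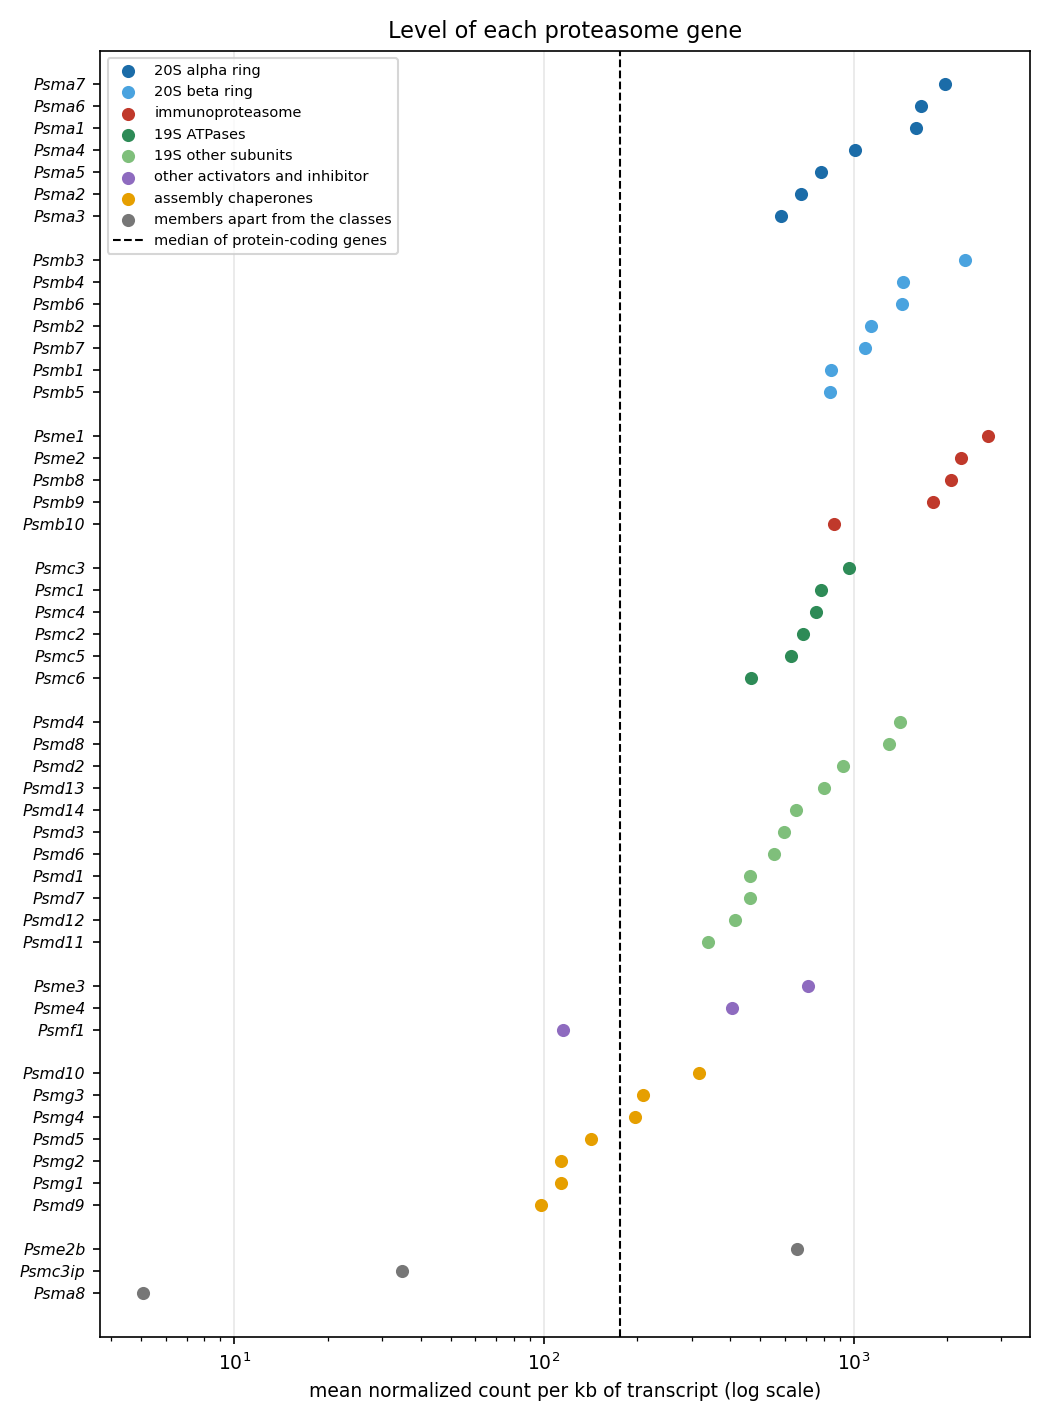
Mean normalized count per kb of transcript (log scale) for each of the 49 members, 1 point a gene, coloured by class, with the median of protein-coding genes as a dashed line. The 20S, 19S and immunoproteasome genes all lie to the right of that line at 175 per kb, the 7 chaperones lie from 97.9 to 318 per kb, and Psma8 is the lowest at 5.05 per kb.

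The α ring is the gate of the core, and its 7 subunits are present in equal numbers in the assembled particle. Their transcripts ranged from 583 per kb (Psma3) to 1969 per kb (Psma7), a factor of 3.38. Psma6 (1649 per kb) and Psma1 (1587 per kb) were close to Psma7, and Psma4 (1006 per kb), Psma5 (784 per kb) and Psma2 (674 per kb) lay between. Psma2 and Psma3 have principal transcripts of 2911 and 2846 bases, the others of 914 to 1239 bases. As mean normalized counts, with no division by length, Psma2 was the highest of the ring at 1962 and Psma5 the lowest at 971. Which α subunit ranks highest therefore turns on the transcript lengths assumed, and with coding lengths the ring spanned a factor of 2.08.

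Of the β subunits with no active site, Psmb3 had 2293 per kb, rank 2 of all members, Psmb4 1443, Psmb2 1140 and Psmb1 846 per kb. The catalytic subunits had 1432 per kb for Psmb6 (β1, which cuts after acidic residues), 1087 per kb for Psmb7 (β2, after basic residues) and 840 per kb for Psmb5 (β5, after hydrophobic residues). Psmb5 was the lowest of the 7 and Psmb3 the highest, by a factor of 2.73. Psmb4 was highest with the longest transcripts and with the union of exons, and Psmb7 and Psmb1, respectively, were then lowest. A pseudogene, Gm3375, matched the Psmb5 transcript at 98.9% identity over the whole length of the pseudogene and had a mean normalized count of 104, against 756 for Psmb5 itself. Reads of this pair may have been split between them. Of 21 listed pseudogenes that matched a member, Gm3375 was the only one above 5% of its member's count.

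The immunoproteasome genes held 4 of the 6 highest ranks among the members, and 3 with the longest transcripts or the union of exons. Psme1 (PA28α) held rank 1 with 2706 per kb and a mean normalized count of 3009, but it was not the highest member under any of the 4 other length settings. Psme2 (PA28β), its partner in the activator ring, held rank 3 with 2219 per kb and a count of 2135. Psmb8 (β5i) held rank 4 with 2063 per kb, and its mean normalized count of 3359 was the highest of all members before division by length. Psmb9 (β1i) held rank 6 with 1809 per kb. Psmb10 (β2i) had 865 per kb at rank 18 of 49, below the other immunoproteasome genes, but with the longest transcripts Psmb9 (848 per kb) was lower than Psmb10, and with the union of exons they had 668 and 665 per kb. The other 4 were above all 17 Psmc and Psmd subunits of the 19S particle. This number fell to 3 with the longest transcripts and with the union of exons, and to 2 with no division by length. Sem1, a lid subunit that the naming rule does not take in, had 2503 per kb, above every immunoproteasome gene except Psme1.

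Each immunoproteasome β subunit takes the place of one constitutive subunit, so the levels were compared within these 3 pairs. At the β5 place, Psmb8 was 2.46 times as high as Psmb5 and made up 71.1% of the pair (95% interval 70.5 to 71.6). At the β1 place, Psmb9 was 1.26 times as high as Psmb6, or 55.8% of the pair (55.2 to 56.4). At the β2 place the order was the other way, Psmb10 being 0.796 times Psmb7, or 44.3% of the pair (43.6 to 45.0). The intervals are Wilson intervals on the mean multiplied by the number of libraries, and they cover counting error only, not the spread between samples, which is unknown here. Summed over the pairs, the immunoproteasome subunits had 1.41 times the level of the constitutive ones, and from 1.28 times with the union of exons to 2.25 times with coding lengths.

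**Figure D2:**
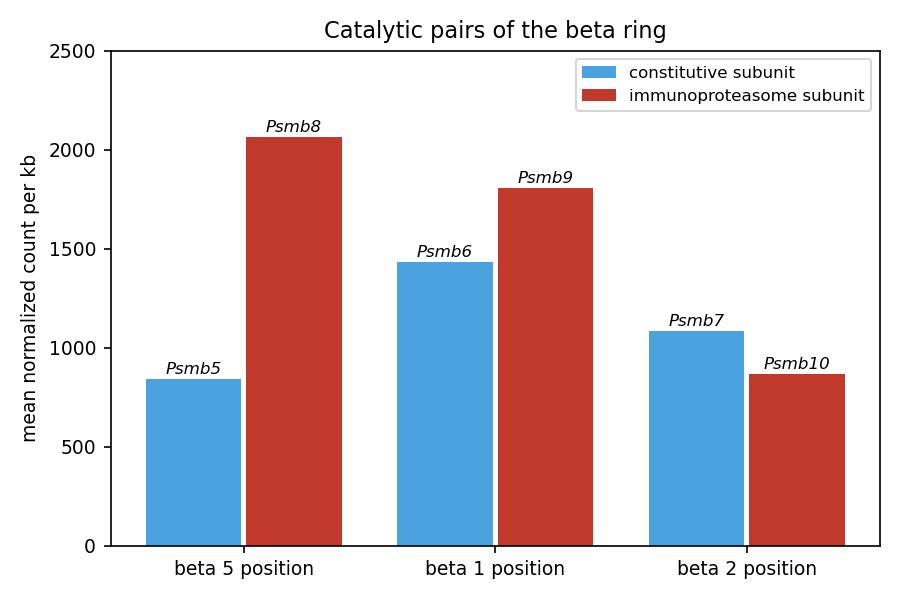
Mean normalized count per kb for the constitutive and the immunoproteasome subunit at each catalytic place of the β ring. Bars are single pooled means and have no error bars. Psmb8 is well above Psmb5 (2063 against 840 per kb), Psmb9 is above Psmb6 and Psmb10 is below Psmb7.

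The size of these shares rested on the lengths used. Psmb8 exceeded Psmb5 in all 6 alternatives, with shares from 54.2% (union of all exons) to 81.6% (no division by length). Psmb9 fell below Psmb6 when each gene's longest transcript was used (41.7%). Psmb10 rose above Psmb7 with the longest transcript (66.2%) and with the union of exons (64.4%). At the β2 place these settings change Psmb7 more than Psmb10, since the principal, longest and union lengths are 1160, 2849 and 3421 bases for Psmb7, against 1311, 1311 and 1705 bases for Psmb10. The order at the β1 and β2 places thus depended on the length chosen.

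**Figure D3:**
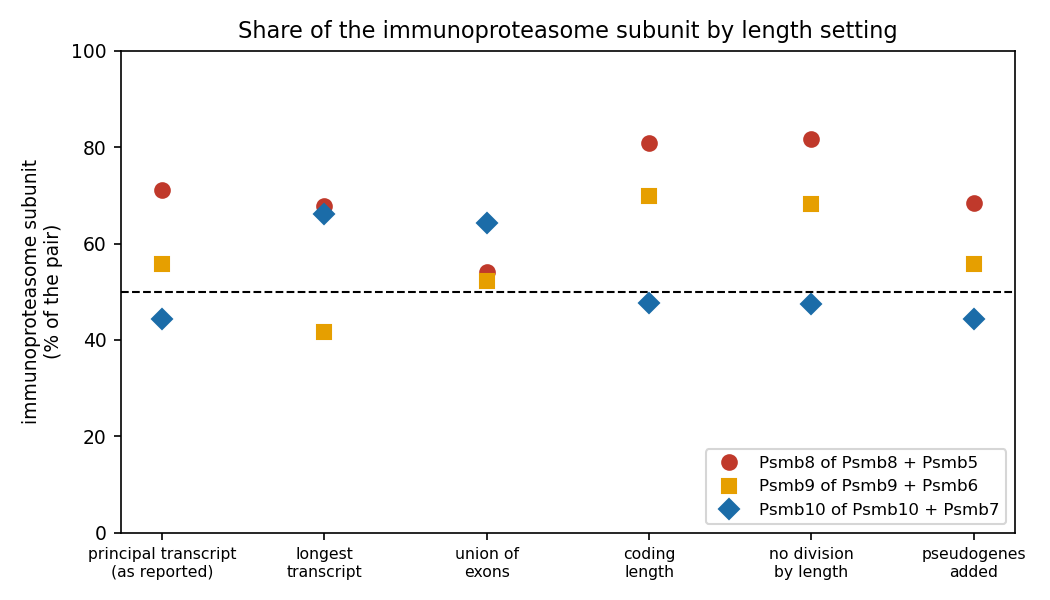
Share of the immunoproteasome subunit in each pair (percent of the summed level of the pair) under 6 settings, with 50% as a dashed line. Psmb8 stays above the line in every setting, while Psmb9 and Psmb10 cross it.

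The paired subunits are relatives, so their sequences were compared to see whether reads could be confused. Over the aligned coding bases, identity was 73.5% for Psmb8 and Psmb5, 70.5% for Psmb9 and Psmb6, and 69.6% for Psmb10 and Psmb7. The stretches of 90 bases in which each of the first and the last pair are most alike are shown here, 5′ to 3′ from GENCODE M21, with the bases that differ in capitals. They cover coding bases 446 to 535 of Psmb8 and 407 to 496 of Psmb5, then 189 to 278 of Psmb10 and 201 to 290 of Psmb7.
Psmb8: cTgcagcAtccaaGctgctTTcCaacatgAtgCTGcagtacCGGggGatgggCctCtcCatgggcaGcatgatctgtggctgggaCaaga
Psmb5: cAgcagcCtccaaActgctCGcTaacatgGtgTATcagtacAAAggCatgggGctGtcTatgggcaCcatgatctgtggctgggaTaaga
Psmb10: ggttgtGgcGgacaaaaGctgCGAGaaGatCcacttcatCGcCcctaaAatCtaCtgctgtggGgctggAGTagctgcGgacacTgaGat
Psmb7: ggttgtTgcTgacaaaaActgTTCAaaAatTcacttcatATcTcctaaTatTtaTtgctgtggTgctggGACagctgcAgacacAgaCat
Even these closest stretches differed at 19 and 22 of the 90 bases.

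For PA28 the picture was different. Psme1 and Psme2 shared 72.0% of aligned coding bases, but the member Psme2b, a single-exon copy of Psme2 on chromosome 11 from 48945354 to 48946190 of mm10, differed from Psme2 at 5 of 717 coding bases (99.3% identity). Psme2b had a mean normalized count of 551, which is 20.5% of the counts of Psme2 and Psme2b together, and a level of 658 per kb. The stretch of 90 bases richest in differences, coding bases 454 to 543 of both, shows how little separates the copies, with the differing bases in capitals.
Psme2b: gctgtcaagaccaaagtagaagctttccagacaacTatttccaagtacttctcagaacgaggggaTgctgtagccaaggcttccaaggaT
Psme2: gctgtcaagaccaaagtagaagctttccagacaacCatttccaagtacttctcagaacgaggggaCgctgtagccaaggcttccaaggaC
Only 3 bases differ in this stretch. Reads within the coding bases that cover none of the 5 positions match both genes, so the split between Psme2 and Psme2b is uncertain. The comparison given here covers coding bases only, not the rest of the transcripts. Psme1 was 1.22 times as high as Psme2, and with the longest transcripts it was lower.

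Other proteins that bind the end of the core were lower than PA28α and PA28β. Psme3 (PA28γ, the nuclear member of the family) had 711 per kb, 26.3% of Psme1 and from 46.9% to 62.9% of it under the other length settings. Psme4 (PA200, a large single-chain activator) had 405 per kb, although its mean normalized count of 2630 was among the highest, since its transcript has 6491 bases. Psmf1 (PI31, described as an inhibitor of the core in vitro) had 115 per kb, below the coding median.

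The 6 ATPases of the 19S base, which unfold substrates, ranged from 466 per kb (Psmc6) to 966 per kb (Psmc3). This factor of 2.07 was the smallest of the classes, except with the union of exons, where the immunoproteasome genes spanned 2.05 and the ATPases 2.67. Psmc6 was the lowest ATPase only with the principal transcripts. Psmc1, Psmc4, Psmc2 and Psmc5 had 786, 754, 684 and 626 per kb. The other 11 subunits of the 19S particle spread wider, by a factor of 4.17. Psmd4, a receptor for ubiquitin chains, was highest with 1412 per kb, followed by Psmd8 (1298 per kb) in the lid. Under the other 4 length settings Psmd8 or Psmd2 was highest. The large scaffold subunits Psmd2 and Psmd1 had 925 and 463 per kb. Psmd14, the deubiquitinase of the lid, had 653 per kb and Psmd7, with which it forms a dimer, 462 per kb. The remaining lid subunits were Psmd13 (805 per kb), Psmd3 (594), Psmd6 (552), Psmd12 (413) and Psmd11 (338), the lowest of the particle, though Psmd1 was lowest of these 11 with coding lengths and Psmd7 with no division by length.

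The chaperones help assembly and are not part of the finished particle. Psmg1 and Psmg2, which act as a pair on the α ring, had nearly the same level, 113.5 and 113.6 per kb. Psmg1 stayed at 0.900 to 1.27 times Psmg2 under the other length settings. The second pair, Psmg3 and Psmg4, had 209 and 197 per kb, but Psmg3 ranged from 0.325 to 1.71 times Psmg4 under those settings. Of the chaperones of the 19S base, Psmd10 (gankyrin) had 318 per kb, Psmd5 142 and Psmd9 97.9 per kb. All 7 lay below the lowest 20S or 19S subunit in the main setting, but not with the union of exons or with coding lengths.

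The last members belong to no class above. Psma8, a form of the α4 subunit known from the testis, had a mean normalized count of 8.54, or 5.05 per kb, at the 3.39th percentile of coding genes. Psmc3ip shares only the start of its symbol with the ATPases and encodes a partner protein of meiotic recombination, and it had 34.7 per kb.

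To put the spread in scale, 3 other complexes whose subunits are present in equal numbers were described in the same way. The levels of the CCT chaperonin (8 genes) spanned a factor of 2.94 around a median of 872 per kb, those of the translation factor eIF3 (12 genes) a factor of 4.14 around 1001 per kb, and those of the COP9 signalosome (8 genes), a relative of the 19S lid, a factor of 1.89 around 414 per kb. The factors within the proteasome classes were 2.07 to 4.17, and 6.18 for Psme3, Psme4 and Psmf1, which are alternative partners of the core and not subunits of one complex. The chaperones (3.24) and the immunoproteasome genes (3.13) are not sets of subunits in equal numbers either. In the β ring, Psmb5, Psmb6 and Psmb7 share their places with Psmb8, Psmb9 and Psmb10. No test was made of this, since the genes of a complex are not replicates. The groups also differ in number of genes, which a factor of highest over lowest depends on. Factors of the 3 other complexes were computed with principal transcripts only. Over all length settings, those of the proteasome classes ranged from 1.76 (ATPases, coding lengths) to 8.81 (chaperones, union of exons), leaving out Psme3, Psme4 and Psmf1.

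**Figure D4:**
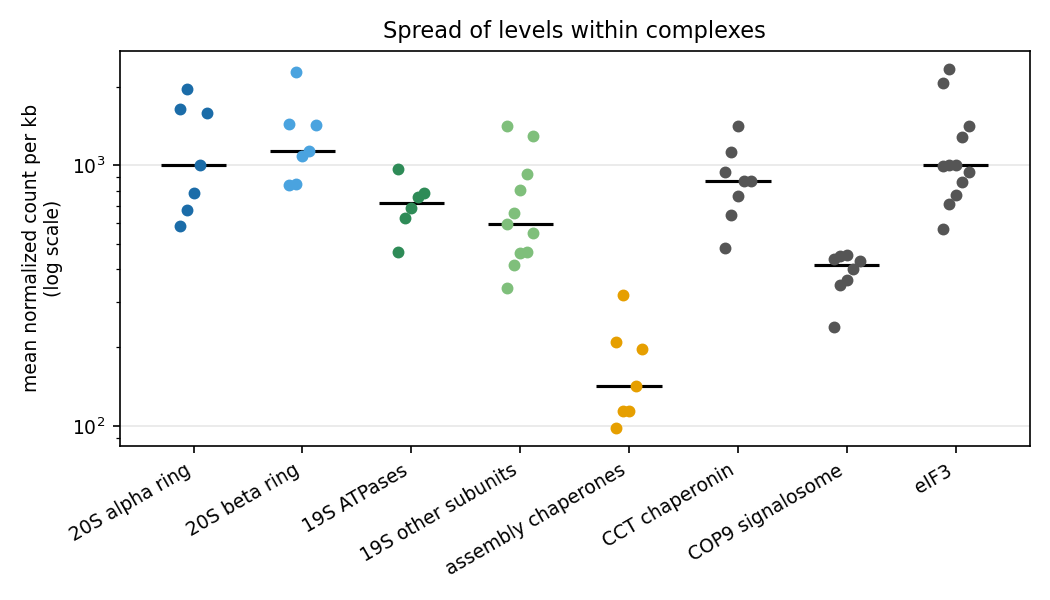
Mean normalized count per kb (log scale) for the genes of 5 proteasome classes and 3 other complexes, 1 point a gene, with the median as a line. The chaperones lie lowest, with a median of 142 per kb, and the COP9 signalosome is the tightest group, spanning a factor of 1.89.

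Genes around the proteasome were read from lists rather than picked by level. Of 8 subunits and partners that the naming rule does not take in, 7 were found in the table and 6 lay above the coding median. Sem1, a small lid subunit listed as Shfm1, had 2503 per kb, higher than any Psmd gene. Adrm1, a ubiquitin receptor, and Pomp, the chaperone of the β ring, had 780 and 760 per kb, so Pomp was well above the other assembly chaperones. Uchl5 (339 per kb) and Usp14 (96.0 per kb) are deubiquitinases bound to the 19S particle, Ecpas (326 per kb) a scaffold and Akirin2 (379 per kb) a factor in nuclear import of proteasomes. Paaf1 was not analysed here.

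The transcription factors named here were all above the coding median. Irf1, which acts in the interferon γ response, had 3278 per kb, above every member with principal transcripts. Nfe2l2 had 2160 per kb and Nfe2l1, known for raising proteasome genes when degradation is blocked, 658 per kb. Nlrc5, the MHC class I transactivator, had 323 per kb. Of the 7 genes of peptide supply to class I, all above the coding median, the highest were those of the MHC molecule itself, with 44897 per kb for B2m, 39049 for H2-D1 and 19033 for H2-K1. The transporter genes Tap1 and Tap2 had 2037 and 1238 per kb, Tapbp 2396 and the trimming peptidase Erap1 237 per kb. Among genes of ubiquitin supply and shuttles, the ubiquitin genes Ubb and Rps27a had 25150 and 12756 per kb, Uba1, the activating enzyme, 1913, the segregase Vcp 1937, and the shuttle genes Rad23b, Ubqln1 and Ubqln2 458, 634 and 147 per kb.

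The members lie on 16 chromosomes, with 10 on chromosome 11. On chromosome 17 of mm10, Psmb9 (34181987 to 34187764, minus strand) and Psmb8 (34197721 to 34201454, plus strand) lie 9956 bases apart with Tap1 between them, within the MHC. Psmb9, Psmb8 and Tap1 had 1809, 2063 and 2037 per kb. Psmb9 ranged from 0.481 to 0.917 times Psmb8 under the other length settings. Psme1 (55578123 to 55581529, plus strand) and Psme2 (55587441 to 55591113, minus strand) lie 5911 bases apart on chromosome 14 with Emc9 between them. Psmb10 lies on chromosome 8, from 105935735 to 105938444, apart from the other immunoproteasome genes.

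Promoter windows from RefSeq (GRCm38.p6, 250 bases before to 50 after a start) were found for 41 of the 49 members, and letters of 7 motifs were searched on both strands. The ETS letters CCGGAAG were in 36.6% of these members and in 9.93% of all genes with a window. They were in 6 of 9 promoters of the other 19S subunits and 3 of 5 of the ATPases, and in 1 of 7 of the α ring, 0 of 4 of the β ring and 0 of 5 of the immunoproteasome genes. The median GC content of the windows was 58.5% for the members and 52.7% for all genes, expressed or not. Whether this difference bears on the ETS letters was not tested. The interferon-stimulated response element (ISRE) was in 12.2% of members against 3.99% of all genes. These members were Psmb3, Psmd4, Psmd9, Psmg4 and, as the only immunoproteasome gene, Psme1, where it lies past the start. The windows of Psme1, Psmb8 and Psmb9 lie within the gene as placed by GENCODE. Bases before the GENCODE start of these genes were therefore not searched, for this or any other motif. The antioxidant response element TGACNNNGC, known as a site for Nfe2l1 and Nfe2l2, was in 14.6% against 14.0%, and among the catalytic subunits with a window it was in Psmb5 and Psmb6. The gamma-activated site TTCNNNGAA was in 7.32% against 9.55%, CCAAT in 34.1% against 41.1%, TATAAA in 9.76% against 15.7% and the canonical κB letters in 0% against 0.174%. A match is a description of letters and not a site of binding.

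The 250 bases before the start are shown for both genes of the β5 and β1 pairs, because these pairs set constitutive beside immunoproteasome genes, with matched motifs in capitals. They are chr14:54617996-54618245 (minus strand) for Psmb5, chr17:34197945-34198194 (plus) for Psmb8, chr11:70525107-70525356 (plus) for Psmb6 and chr17:34187331-34187580 (minus) for Psmb9.
Psmb5: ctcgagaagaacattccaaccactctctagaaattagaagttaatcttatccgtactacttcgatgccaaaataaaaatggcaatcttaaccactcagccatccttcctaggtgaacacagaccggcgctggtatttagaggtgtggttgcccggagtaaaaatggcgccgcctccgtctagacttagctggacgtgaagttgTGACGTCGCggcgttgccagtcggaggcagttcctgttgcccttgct
Psmb8: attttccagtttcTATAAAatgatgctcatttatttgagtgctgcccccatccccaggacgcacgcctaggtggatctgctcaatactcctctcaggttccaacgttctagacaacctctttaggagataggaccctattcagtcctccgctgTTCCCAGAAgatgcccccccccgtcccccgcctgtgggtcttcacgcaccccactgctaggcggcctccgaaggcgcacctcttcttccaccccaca
Psmb6: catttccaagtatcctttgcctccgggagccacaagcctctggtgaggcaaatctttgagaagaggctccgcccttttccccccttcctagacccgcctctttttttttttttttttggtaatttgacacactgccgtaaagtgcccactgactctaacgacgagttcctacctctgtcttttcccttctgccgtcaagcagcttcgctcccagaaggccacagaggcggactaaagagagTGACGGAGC
Psmb9: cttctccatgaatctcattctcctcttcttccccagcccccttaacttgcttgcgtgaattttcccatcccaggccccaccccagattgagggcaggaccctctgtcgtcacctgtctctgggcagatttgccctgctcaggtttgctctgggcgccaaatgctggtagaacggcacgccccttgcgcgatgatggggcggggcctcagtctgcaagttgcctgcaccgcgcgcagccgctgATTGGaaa
In Psmb5 the capitals mark the antioxidant response element letters, which end 38 bases before the start, and in Psmb6 the same letters end at the start. In Psmb8 they mark TATAAA, which lies 231 bases before the start, and the gamma-activated site letters, 88 bases before it. In Psmb9 they mark the CCAAT letters on the other strand, 3 bases before the start. Neither immunoproteasome window held the antioxidant response element letters, and neither constitutive window held the gamma-activated site letters, which the Psmb9 window lacked too. Over all genes with a window, 14.0% held the former letters and 9.55% the latter. These few windows therefore cannot show a difference between constitutive and immunoproteasome genes. The windows are not placed alike against the GENCODE gene positions. Those of Psmb8 and Psmb9 lie within the gene, while those of Psmb5 and Psmb6 lie at or before the gene's start.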

How the data were processed

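RNA-sequencing covered 8 samples in 4 groups of 2, assigned by their titles, since the cell-marker label reads CD11b+Ly6C+ for all. Per the submitters' notes and methods, adapters were cut with cutadapt (1.14), STAR (2.5.2b) mapped in 2 passes to mm10, RSEM (1.3.0) counted against GENCODE M12, and DESeq2 (1.20.0) compared groups. The deposited signal is the authors' mean of estimated counts divided by size factors. The table also holds the authors' log2 fold changes, standard errors, statistics, p-values, adjusted p-values and fold changes between genotypes, 6 columns that were not used here. The planned count test needs values per sample and was not run.

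Levels are means divided by the length of the longest transcript of the best APPRIS principal class (GENCODE M21, same build, a later release). Of 23084 genes, 23004 had a position. A repeated symbol was represented by its highest mean. Percentiles are among protein-coding genes with a mean of at least 10. Numbers of libraries were found from single-read steps (tolerance 5e-06), tested first on simulated counts. Pseudogenes were matched with blastn 2.17.0 (identity at least 80%, coverage at least 50%), and coding sequences were aligned with Biopython 1.88. Python 3.11.15, pandas 2.3.3 and scipy 1.17.1 were used. Alternatives were other lengths, no length, pseudogene reads added, no minimum and all gene types. For depth, the paper gives a range of reads per sample but not the reads of each sample. The size factors found here were not read as depth. Every member could be named, and other genes came from lists, some of whose genes are not reported here. The members and lists were chosen with earlier results of these data known.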

Additional observations from a re-analysis of the deposited data

How the results depend on the processing

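No paired analysis was possible because only 1 mean per gene was used, with no sample values, and for the same reason no replicate was left out and stability against single samples is unknown. With the longest transcript of each gene in place of the principal one, the pair shares of Psmb8, Psmb9 and Psmb10 were 67.7%, 41.7% and 66.2%. The ratios of medians (immunoproteasome over core, core over 19S, core over chaperones) were 1.41, 1.86 and 9.46, the spreads (α ring, β ring, ATPases, other 19S subunits) 2.83, 3.26, 2.47 and 3.11, and the percentiles of the immunoproteasome and chaperone medians 92.4 and 42.7, against 93.9 and 45.1 as reported. In the same order, with the union of exons the shares were 54.2%, 52.3% and 64.4%, the ratios 1.58, 1.76 and 7.29, the spreads 3.27, 2.70, 2.67 and 4.49, and the percentiles 91.2 and 43.6. In the same order, with coding lengths the shares were 81.0%, 69.9% and 47.7%, the ratios 1.76, 2.44 and 5.53, the spreads 2.08, 2.99, 1.76 and 3.75, and the percentiles 91.5 and 51.0. In the same order, with no division by length the shares were 81.6%, 68.2% and 47.4%, the ratios 1.55, 1.29 and 8.52, the spreads 2.02, 2.32, 1.92 and 3.75, and the percentiles 83.2 and 29.8. With no minimum on the mean the 2 percentiles were 95.2 and 57.1, and with all gene types 94.5 and 50.5. Adding the 3 pseudogenes named after a member moved none of the 12 comparisons beyond counting error. Adding every matching pseudogene, an alternative chosen after seeing the data, moved only the share of Psmb8, to 68.3%. The sides of 50% changed for Psmb9 with the longest transcript and for Psmb10 with the longest transcript and the union of exons, where those lengths take in other annotated transcripts. Of the 49 single levels, 20 moved beyond counting error with the longest transcript and 45 with the union of exons.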
